A study of Mus musculus with 4 samples.

Results

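Oxidative phosphorylation (OXPHOS) was followed through 109 of the 17712 genes listed for 4449 cells of the mouse stomach. The genes were those whose symbol begins with Nduf, Cox4 to Cox8, Atp5, Uqcr, Sdha, Sdhb, Sdhc, Sdhd, Cyc1, Cycs or mt-. This rule uses symbols alone, but it was set with earlier results of these data known. Of these, 96 were nuclear genes and 13 were the mitochondrially encoded protein genes, which carry the prefix mt-. The nuclear genes comprised 84 subunit genes, with 37 of complex I, 4 of complex II, 9 of complex III, 1 for cytochrome c, 16 of complex IV and 17 of complex V, and 12 assembly factors named Ndufaf or Sdhaf. Ndufa4 and Cox7a2l were counted with complex IV.

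Cells came from female Rosa26iH2b-GFP mice, 14 weeks old, in which a TRE3G-driven H2b-GFP and a Tet-on 3G transactivator under the EF1a promoter sit at the Rosa26 locus. GFP+ and Epcam+ cells alike carried this allele and had the same history of doxycycline for 4 weeks and a chase of 6 weeks without it. GFP+ cells were sorted from the Epcam-positive fraction for retained H2b-GFP, and Epcam+ cells were sorted for Epcam alone, both without Cd45 or Cd31. Each sort gave 2 single-cell libraries, named here GFP+ 1, GFP+ 2, Epcam+ 1 and Epcam+ 2. Cells of 2 mice were combined for loading. Nothing in the sources used here says that the libraries of a sort came from separate animals. In comparisons of the sorts within a cluster, p therefore measures the spread between libraries. In comparisons of clusters, and of the sort effect among clusters, the library is a block. There p measures the spread of library and cluster sums that remains beside it. Either spread may be technical.

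OXPHOS takes place at the inner mitochondrial membrane. Complexes I and II pass electrons from NADH and succinate to ubiquinone, complex III hands them to cytochrome c, complex IV passes them to oxygen, and complex V uses the resulting proton gradient to make ATP. Complexes I, III, IV and V are mosaics of subunits encoded in the nucleus and in mitochondrial DNA, whereas complex II is entirely nuclear. Parietal cells of the gastric gland acidify the stomach with an ATP-driven proton pump and are known for their dense packing with mitochondria.

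The authors' clusters were taken as deposited, by number. The paper's text names clusters 1 and 5 as chief and 3 and 4 as isthmus cells. Cluster 0 is called neck here, 2 pit, 6 and 7 endocrine and 8 parietal cells. Library sizes ran between 35571141 and 79455225 unique molecular identifiers (UMIs, each standing for 1 captured transcript), and median UMIs per cell were 45119 and 104840 in GFP+ 1 and GFP+ 2 and 35067 and 31735 in Epcam+ 1 and Epcam+ 2. The secretory transcripts Clps, Pla2g1b and Pgc took 58.4% and 72.7% of all UMIs in the GFP+ libraries and 32.3% and 35.2% in the Epcam+ libraries, so levels are given with these 3 genes set aside wherever that is stated. Levels were summed over at least 20 cells of a library and cluster. Cluster 9 had 32 cells, and no library held 20 of them, so it was not used. The parietal marker list (Atp4a, Atp4b, Slc26a7, Aqp4, Kcne2 and Vegfb, all 6 detected) summed to 6699 and 8466 CPM (counts scaled to a common library total) of all UMIs in cluster 8 and to between 16.8 and 165 in every other cluster, so the label fits these markers. The neck marker list (Muc6, Pga5, Tff2 and Cftr) averaged 33158 CPM in cluster 0 and 33082 and 29364 in isthmus clusters 3 and 4. It therefore does not set cluster 0 apart from isthmus cells. Nor does it from pit cluster 2, where its 11706 to 25950 CPM overlapped the 17889 to 48606 of cluster 0. Between libraries, at most 3 cell barcodes were shared.

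Nuclear OXPHOS transcripts took up a far larger part of the transcriptome in parietal cells than anywhere else in the gland. Their share of UMIs outside Clps, Pla2g1b and Pgc was 7.54% in the parietal cells of Epcam+ 1 and 8.32% in those of Epcam+ 2. In the other 8 clusters the share lay between 1.72% and 3.19% in every library, so that the parietal values stood clear of all others. Cluster 7, called endocrine here, was lowest, with 2.03% ± 0.28 (SD, n = 3 libraries). In it chief markers made up between 159410 and 341310 CPM of all UMIs. The endocrine list (Chga, Chgb, Hdc, Ghrl, Sst and Gast) made up 73055 to 185910. In Epcam+ 1 and GFP+ 1 the chief list was the larger, so these markers do not settle its name. The remaining 7 clusters had means between 2.73% (neck, SD 0.06, n = 4) and 3.12% (isthmus cluster 4, SD 0.11, n = 2), and neighbours in that order overlapped in their library values.

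**Figure D1:**
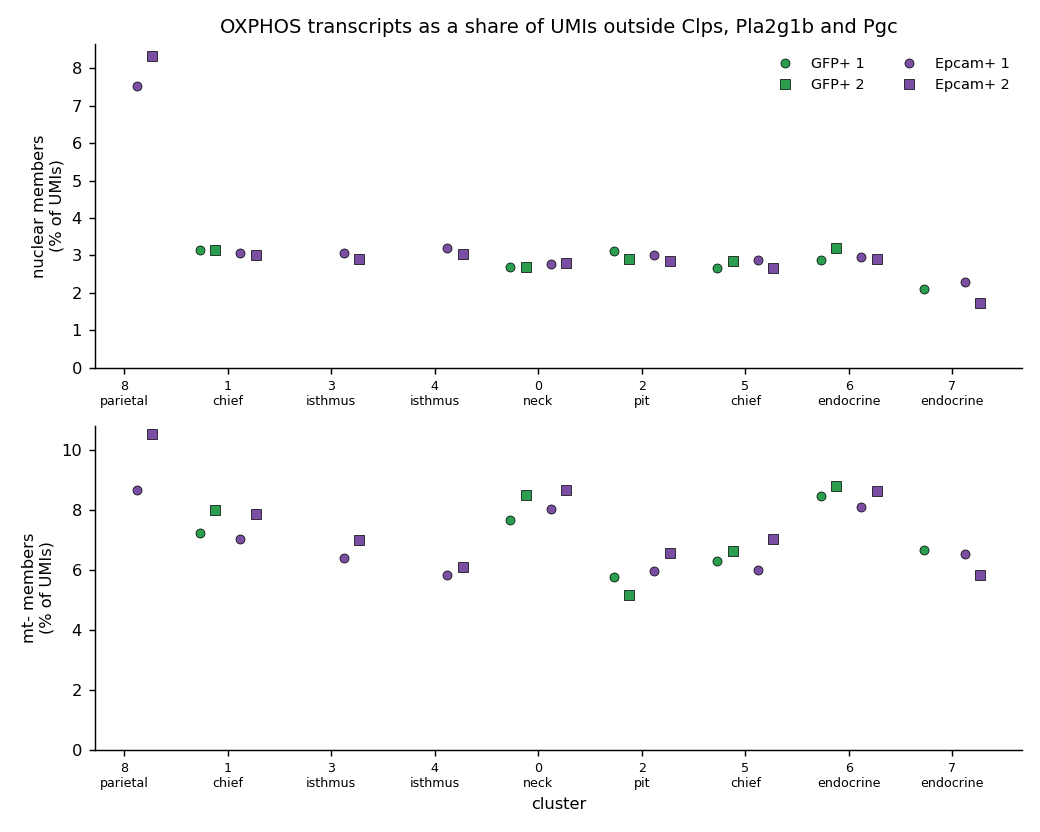
Nuclear OXPHOS genes (upper panel) and mt- genes (lower panel) as a percentage of UMIs outside Clps, Pla2g1b and Pgc, by cluster, with 1 point per library holding at least 20 cells of the cluster. Parietal cells reach 7.54% and 8.32% in the upper panel against at most 3.19% elsewhere, while in the lower panel their 8.66% and 10.5% border on the values of neck and endocrine cells.

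The mt- genes did not separate the cell types in this way. Their share outside the 3 secretory genes was 8.66% and 10.5% in parietal cells, against 8.50% ± 0.30 in endocrine cluster 6 and 8.22% ± 0.45 in neck cells (SD, n = 4 each), so that the lower parietal library lay within the range of those clusters. Pit cells (5.86% ± 0.58, n = 4) and isthmus cluster 4 (5.95% ± 0.18, n = 2) were at the low end. The 2 genomes therefore had different proportions in different cells. For every UMI of a nuclear member, parietal cells held 1.15 and 1.27 UMIs of mt- genes, pit cells 1.78 to 2.29, cluster 1 chief cells 2.29 to 2.61, neck cells 2.86 to 3.16 and endocrine cluster 7 between 2.87 and 3.39.

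In chief cells the denominator governs what is seen. Of all UMIs, nuclear members made up only 0.551% and 0.549% in the cluster 1 cells of GFP+ 1 and GFP+ 2 and 0.536% and 0.552% in those of Epcam+ 1 and Epcam+ 2, because 81.7% to 82.6% of UMIs there belonged to Clps, Pla2g1b and Pgc. Outside those genes the same cells had 3.14% and 3.15% in the GFP+ libraries and 3.05% and 3.02% in the Epcam+ libraries, close to the other cell types. Cluster 5, whose secretory share was 54.8% to 61.8%, had 2.66% and 2.86% in the GFP+ libraries and 2.87% and 2.67% in the Epcam+ libraries. A share of UMIs says how the transcriptome is divided and not how many transcripts a cell holds.

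In single cells, mt- genes were also highest in parietal cells, under a limit set by processing. The authors had removed cells with more than 15% mitochondrial counts. The median parietal cell had 9.26% of all UMIs from mt- genes and the highest had 14.4%, and 10 of 51 parietal cells (19.6%) exceeded 12%. In the other clusters 0.446% to 6.82% of cells exceeded 12%, and the highest of these shares was that of endocrine cluster 7. How many parietal cells were removed by that limit was not tested, since the removed cells were not used here. When cells over 10% were left out and sums of at least 10 cells were allowed, an alternative chosen after seeing the data, 90 of 94 nuclear members were called in parietal cells against the other clusters, at a median log2 difference of 1.37, and 8 of 13 mt- genes at 0.29. Sums of at least 10 cells without that limit gave 90 nuclear members at 1.51 and 11 mt- genes at 0.56.

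**Figure D2:**
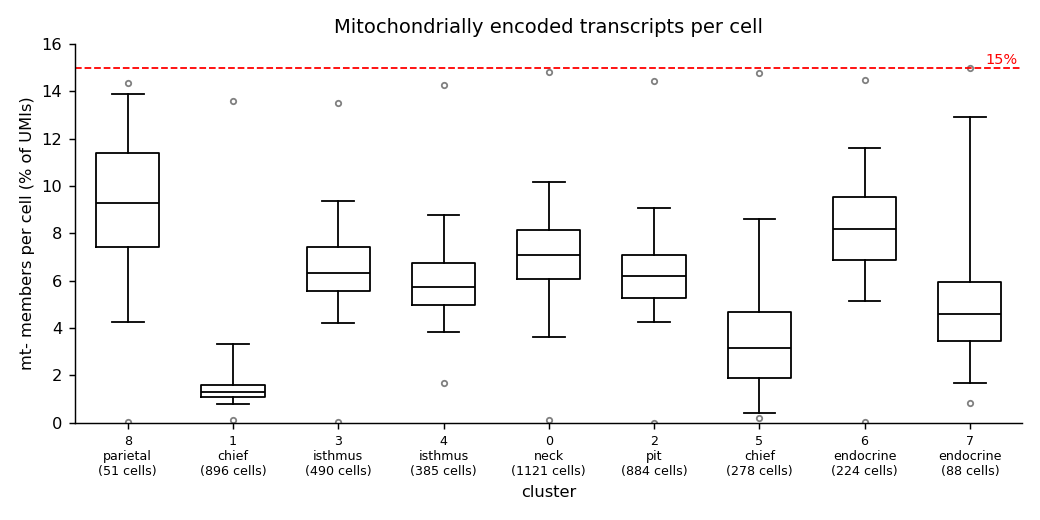
Percentage of all UMIs from the 13 mt- genes in single cells, by cluster, with the number of cells. Boxes span the quartiles with the median as a line, whiskers reach the 5th and 95th percentiles, open circles are the lowest and highest cell, and the dashed line is the authors' limit of 15%. Parietal cells have the highest median, 9.26%, and cluster 1 chief cells the lowest, 1.31%.

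Almost the whole nuclear OXPHOS set was higher in parietal cells than in the mean of the other clusters. Of the 94 nuclear members with enough counts to be tested, 90 were called higher and 1 lower (edgeR's quasi-likelihood test on UMIs summed by library and cluster, with the library as a block, adjusted p below 0.05 by Benjamini-Hochberg over 13154 genes), where 17.5% of all genes tested were called higher and 15.8% lower. The median log2 difference was 1.45 for nuclear members and −0.20 for all genes tested. Of the 13 mt- genes 11 were called higher, at a median of 0.46, and without the library Epcam+ 2 this count was 7. Clusters had been drawn by the authors from expression in these same cells, so cluster and gene are not independent, and the parietal side rests on 51 cells of 2 libraries.

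Every complex took part. All 4 genes of complex II, all 9 of complex III, all 17 of complex V and the cytochrome c gene were called higher, as were 36 of 37 in complex I and 13 of 14 tested in complex IV. The medians were 1.44 for complex I, 1.74 for II, 1.64 for III, 1.46 for IV and 1.49 for V on the log2 scale. Of the 12 assembly factors 10 were called higher, at a median of 0.88. Sdhd, Sdhb and Sdhc, the abundant transcripts of complex II, differed by 1.87, 1.95 and 1.61.

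**Figure D3:**
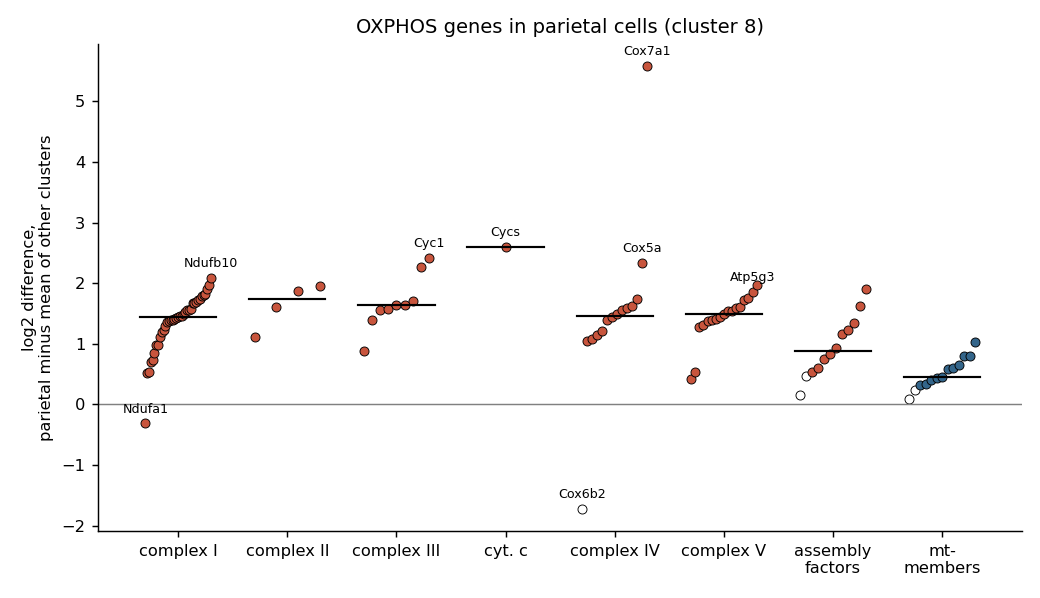
Log2 difference between parietal cells (cluster 8) and the mean of the other clusters for each tested OXPHOS gene, grouped by complex. Filled points passed an adjusted p of 0.05, open points did not, and bars are medians. Cox7a1 stands apart at 5.58, most nuclear subunits lie between 1 and 2, and the mt- genes lie between 0.08 and 1.04.

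The largest difference belonged to Cox7a1, the subunit 7a isoform of complex IV known for heart and skeletal muscle. Its level, in CPM scaled by TMM (trimmed mean of M values, which evens out composition between sums), was 51.8 and 39.7 in the parietal cells of Epcam+ 1 and Epcam+ 2, from 82 and 65 UMIs. In the other 27 sums of libraries and clusters it lay between 0 and 2.90. No overlap existed, and the log2 difference was 5.58 ± 0.26 (SE). The ubiquitous isoform Cox7a2 remained the major form, at 849 and 891 TMM CPM in parietal cells and between 186 and 480 elsewhere. As a share of Cox7a1 plus Cox7a2 UMIs, Cox7a1 made up 5.75% and 4.26% in parietal cells and at most 0.698% in any other sum.

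Cytochrome c (Cycs), the mobile electron carrier between complexes III and IV, came next. It stood at 787 and 841 TMM CPM in parietal cells and between 64.3 and 241 in the other clusters, with a log2 difference of 2.60 ± 0.10 (SE). Cyc1, the heme-bearing cytochrome c1 of complex III, had 636 and 607 TMM CPM in parietal cells, and 47.1 to 227 elsewhere, a difference of 2.42 ± 0.08. Both proteins belong to the same electron path, as does Cox5a, a complex IV subunit, which differed by 2.34 ± 0.09 and stood at 1574 and 1796 TMM CPM in parietal cells. Uqcrfs1, the Rieske iron-sulfur protein of complex III, and Ndufb10 of complex I followed with 2.26 ± 0.07 and 2.08 ± 0.07.

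**Figure D4:**
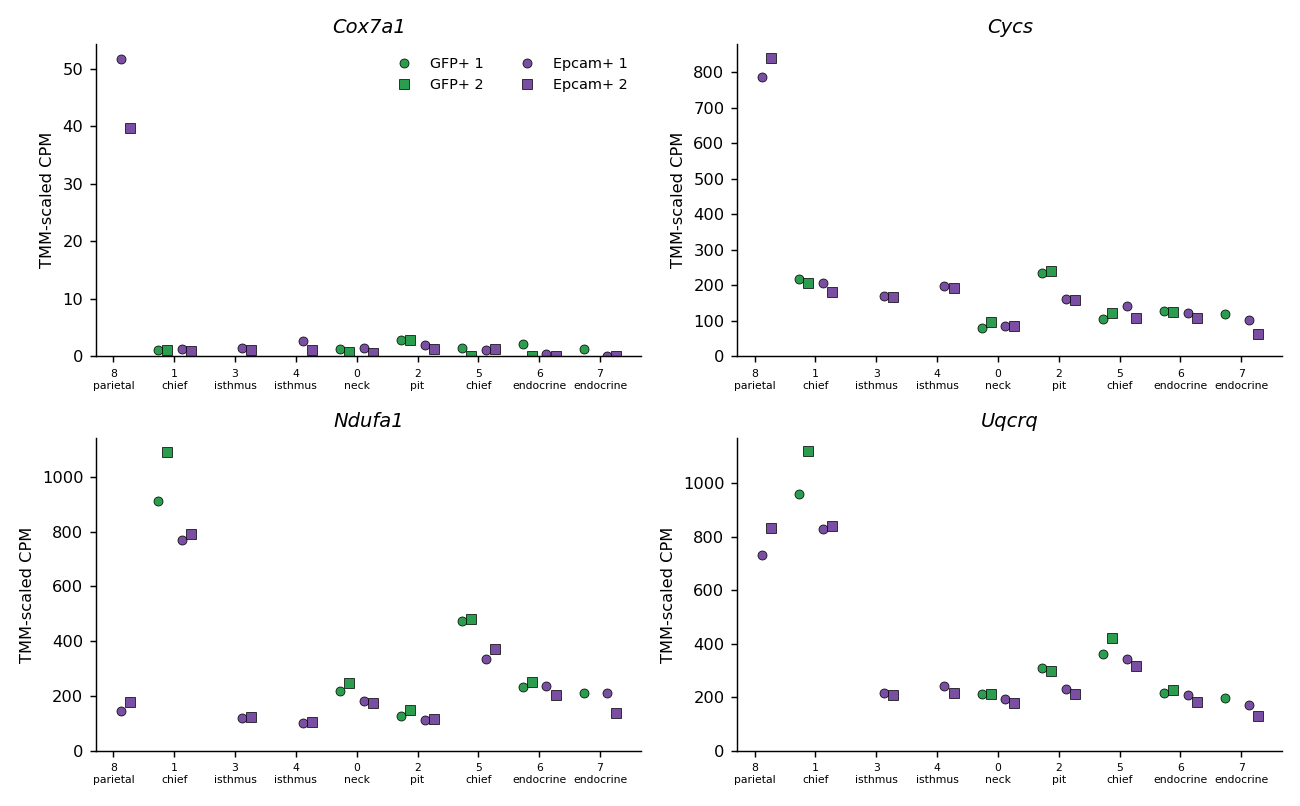
TMM-scaled CPM of Cox7a1, Cycs, Ndufa1 and Uqcrq by cluster, with 1 point per library holding at least 20 cells of the cluster. Cox7a1 and Cycs are highest in parietal cells, Ndufa1 is highest in chief cells and low in parietal cells, and Uqcrq is high in both, on the TMM scale (with library totals the chief differences are −0.34 and −0.85 and the parietal difference of Ndufa1 is 0.29).

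Promoters of 3 of these genes, from 250 bases before to 50 after the annotated start in RefSeq, are shown on build GRCm38.p6 because Cox7a1 and Cycs differed most and Atp5g3 carries both motifs searched. Cox7a1 lies at chr7:30183921-30184220 on the plus strand, Cycs at chr6:50566520-50566819 on the minus strand and Atp5g3 at chr2:73911277-73911576 on the minus strand. Capitals mark the core of the nuclear respiratory factor 1 (NRF1) motif, CGCANGCG, and the estrogen-related receptor half-site, AAGGTCA, each searched on both strands with neither overlapping the other.
Cox7a1: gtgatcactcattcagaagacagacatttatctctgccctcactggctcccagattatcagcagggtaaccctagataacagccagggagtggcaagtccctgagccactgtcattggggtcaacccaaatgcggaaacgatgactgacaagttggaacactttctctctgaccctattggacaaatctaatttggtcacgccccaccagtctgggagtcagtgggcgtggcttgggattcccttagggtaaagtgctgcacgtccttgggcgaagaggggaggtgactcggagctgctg
Cycs: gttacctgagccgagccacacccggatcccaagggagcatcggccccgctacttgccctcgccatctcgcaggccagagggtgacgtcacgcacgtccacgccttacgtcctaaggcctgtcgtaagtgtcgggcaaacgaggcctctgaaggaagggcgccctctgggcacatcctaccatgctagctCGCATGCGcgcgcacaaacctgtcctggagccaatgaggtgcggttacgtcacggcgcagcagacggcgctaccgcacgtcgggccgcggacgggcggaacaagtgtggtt
Atp5g3: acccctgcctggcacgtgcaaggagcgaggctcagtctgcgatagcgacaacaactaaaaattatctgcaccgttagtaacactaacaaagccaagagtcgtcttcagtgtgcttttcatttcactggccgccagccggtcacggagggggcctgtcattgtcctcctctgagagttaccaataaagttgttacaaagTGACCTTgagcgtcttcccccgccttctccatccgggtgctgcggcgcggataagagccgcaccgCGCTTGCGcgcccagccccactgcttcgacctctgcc
Cox7a1 held neither motif in this window, Cycs held 1 NRF1 core, and Atp5g3 held 1 of each. RefSeq promoters were matched for 78 of the 109 members, some with more than 1 start. The NRF1 core was present in 42.2% of 83 member promoters and 8.21% of all 32851 promoters, or 14.4% of the 16268 promoters whose gene is listed in these data. The half-site was present in 9.64% of member promoters, 4.72% of all and 3.54% of those of listed genes. Members with the core and members without it had near-equal medians in parietal cells, 1.47 for 32 genes and 1.41 for 46 on the log2 scale. A match of letters is a description of the window and shows no binding.

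Isoform families of complexes IV and V were not raised evenly. The Atp5g1, Atp5g2 and Atp5g3 genes encode the same c-ring subunit of ATP synthase with different import leaders. Atp5g1 had 1416 and 1454 TMM CPM in parietal cells (180 to 619 elsewhere) and Atp5g3 had 927 and 1176 (158 to 389 elsewhere), with log2 differences of 1.96 ± 0.08 and 1.86 ± 0.08. Atp5g2, at 515 and 501 against 204 to 490 elsewhere, differed by only 0.53 ± 0.10. Its part of all Atp5g UMIs was accordingly 17.0% ± 1.42 in parietal cells (SD, n = 2), whereas in the other clusters the means ranged from 29.7% (cluster 1) to 38.2% (cluster 4). Among complex IV genes, Cox4i1, Cox6a1 and Cox6b1 differed by 1.44, 1.39 and 1.56, while Cox8a (1.05) and Cox7a2l (1.08) were lower in that range. Cox6b2, the testis-type partner of Cox6b1, had 1 UMI or none in parietal sums, with a fitted difference of −1.73 ± 1.38 that did not pass. Cox4i2 (25 UMIs over all cells) and Cox8c (3 UMIs) were too sparse to test.

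Ndufa1, an accessory subunit of complex I encoded on the X chromosome (chrX:37187588-37191163, GENCODE vM21), did not rise with its complex on the TMM scale. It had 145 and 177 TMM CPM in parietal cells, within the 100.0 to 1091 of the other clusters. Against a mean that includes chief cluster 1, where Ndufa1 was highest, its log2 difference was −0.31 ± 0.11. Without the library Epcam+ 1 it was −0.16 and not called, and with library totals in place of TMM it was 0.29, so its direction depends on scaling, but within nuclear members its part did not. Ndufa1 made up 0.307% and 0.342% of nuclear OXPHOS UMIs in parietal cells and at least 0.490% in every other sum. The smallest rises of called complex V and I genes were those of Atp5e (0.41 ± 0.09), Ndufa2 (0.52 ± 0.07), Ndufa7 (0.53 ± 0.08) and Ndufa13 (0.69 ± 0.08).

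Among mt- genes, mt-Nd1 of complex I differed most in parietal cells, with 3226 and 4300.5 TMM CPM there against 1395 to 3125 elsewhere and a log2 difference of 1.04 ± 0.08. The abundant mt-Atp6, mt-Co2 and mt-Co1 differed by 0.58, 0.44 and 0.33. mt-Co3 (0.08 ± 0.07) and mt-Nd6 (0.24 ± 0.21), the one protein gene on the light strand, did not pass. The remaining 7 were called higher with differences from 0.34 (mt-Nd5) to 0.80 (mt-Nd4l). Members of the mitochondrial genome were thus not raised evenly.

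On most other lists of mitochondrial and energy genes, the majority was also called higher in parietal cells. Of all genes tested, 17.5% were higher and 15.8% lower there. All 16 TCA cycle genes were called higher (median 1.58), among them Idh3a (2.67 ± 0.08) and citrate synthase Cs (2.58 ± 0.10), and so were all 14 genes of fatty acid oxidation (median 1.35), including the carnitine palmitoyltransferase Cpt1a (2.41 ± 0.18). All 13 carriers and channels rose, the ADP/ATP carriers Slc25a4 and Slc25a5 by 2.32 and 1.94 and the phosphate carrier Slc25a3 by 1.97. Of 15 glycolysis genes 12 were higher, with Ldhb, the lactate dehydrogenase subunit of oxidative tissues, at 4.33 ± 0.10. Of the mitochondrial ribosomal genes 71 of 78 were higher at a median of 0.86, and 14 of 15 import genes were higher at 1.17. For Tomm6, a small subunit of the outer membrane import pore, the value was −0.13 ± 0.10. Less even were a mitochondrial stress list, with 6 of 12 genes higher and 2 lower, and assembly factors not matched by the symbol rule, with 18 of 29 higher.

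Transcriptional regulators of mitochondrial content were counted as a list of 15 tested genes, of which 10 were higher and 1 lower. The orphan nuclear receptor Esrrg had 284 and 373 TMM CPM in parietal cells and between 1.21 and 26.5 elsewhere, a log2 difference of 5.38 ± 0.15. Its coactivators Ppargc1b (3.91 ± 0.19) and Ppargc1a (2.73 ± 0.24), the related receptor Esrra (2.39 ± 0.14) and Ppara, a receptor that drives fatty acid oxidation genes (2.85 ± 0.40), were also higher. Tfam, which packages and transcribes mitochondrial DNA, differed by 0.61 ± 0.15. Nrf1, whose motif core is described above, stood at 13.3 and 7.32 TMM CPM in parietal cells and 3.45 to 18.1 elsewhere (−0.03 ± 0.29). The related coactivator Pprc1 was lower by −1.32 ± 0.43.

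Chief cells of cluster 1 differed from the other clusters in the makeup of the nuclear set. Within UMIs of nuclear members, Ndufa1 made up 3.53% and 4.19% in the cluster 1 cells of GFP+ 1 and GFP+ 2 and 3.05% and 3.20% in those of Epcam+ 1 and Epcam+ 2. The chief cells of cluster 5 had 2.88% and 2.72% in the GFP+ and 1.83% and 2.24% in the Epcam+ libraries, and all remaining clusters had 0.307% to 1.68%. Uqcrq, a small subunit of complex III, behaved alike, with 3.71%, 4.29%, 3.29% and 3.40% in cluster 1 in the same order of libraries, against 1.00% to 2.38% elsewhere. These shares do not depend on the scaling between sums.

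On the TMM scale Ndufa1 had 912 and 1091 CPM in the cluster 1 cells of GFP+ 1 and GFP+ 2 and 768 and 792 in those of Epcam+ 1 and Epcam+ 2, a log2 difference of 2.26 ± 0.06 from the mean of the other clusters. Uqcrq had 959 and 1119 in the GFP+ and 830 and 841 in the Epcam+ libraries, a difference of 1.75 ± 0.06. Ndufb8 (0.97 ± 0.05) and Ndufb9 (0.95 ± 0.06) of complex I, and mt-Nd4l (1.19 ± 0.07) and mt-Nd3 (1.03 ± 0.06), followed. Sdhd, a membrane anchor of complex II, was lower by −0.58 ± 0.07, and Cox6b2 by −2.20 ± 0.70 at 0 to 0.463 TMM CPM.

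By count, 60 of 94 nuclear members were called higher and 6 lower in cluster 1, where 30.4% of all genes tested were higher and 28.7% lower, and 12 of 13 mt- genes were higher. The median log2 difference was 0.24 for nuclear members, 0.63 for mt- genes and −0.07 for all genes. These counts rest on the scaling, since library totals moved the median of all genes to −2.59 and called all 94 nuclear and all 13 mt- genes lower. With totals without the 3 secretory genes that median was −0.46, with 22 nuclear members higher and 46 lower and 9 mt- genes higher and 1 lower. Ndufa1 and Uqcrq stayed higher in that setting, by 1.87 ± 0.07 and 1.36 ± 0.06, and were lower with library totals, by −0.34 ± 0.07 and −0.85 ± 0.07.

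Beside them in cluster 1, 8 of 12 genes on a mitochondrial stress list were called higher on the TMM scale and 2 lower. Of all genes tested, 30.4% were higher and 28.7% lower, and their shift under other scalings applies here as well. Among the higher genes were Chac1 (6.21 ± 0.17) and Asns (2.83 ± 0.07), both targets of Atf4, and the matrix co-chaperonin Hspe1 (0.67 ± 0.10). The paper places Atf4 in the integrated stress response, so Chac1 and Asns do not mark mitochondrial stress alone. Glycolysis genes were mainly lower (11 of 15, and 1 higher), as were fatty acid oxidation genes (7 of 14, and 3 higher). Tomm6 was higher by 2.08 ± 0.06. Ppargc1a was higher by 1.74 ± 0.14 and Ppargc1b lower by −2.36 ± 0.36, so that the coactivators of mitochondrial genes differed in sign. Ppargc1a had 20.4 and 29.1 TMM CPM in the GFP+ and 18.5 and 20.1 in the Epcam+ libraries of cluster 1, and 27.8 and 45.2 in parietal cells.

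Isthmus cells (clusters 3 and 4), which hold the dividing cells of the gland, showed small shifts in both directions. Of 94 nuclear members 22 were called higher and 32 lower, where 33.2% of all genes tested were higher and 26% lower, and the median was −0.01 for nuclear members and −0.03 for all genes. Complex I leaned to lower values (20 of 37, with 5 higher), including Ndufa1 (−1.04 ± 0.08) and Ndufa11 (−0.57 ± 0.06). For Ndufa1 the mean of the other clusters includes chief cluster 1, where it was highest. Cox5a (0.59 ± 0.08), Cyc1 (0.57 ± 0.07) and Sdhd (0.56 ± 0.07) were higher. Of the mt- genes 11 of 13 were lower at a median of −0.27, led by mt-Nd4l (−0.66 ± 0.09) and mt-Nd5 (−0.62 ± 0.07).

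Genes of mitochondrial protein synthesis and import ran higher in the same cells. Of 78 mitochondrial ribosomal genes 50 were higher and 4 lower (median 0.27), and of 15 import genes 11 were higher and 2 lower (median 0.33). Hspd1, the matrix chaperonin, was higher by 0.78 ± 0.10 and Tfam by 0.60 ± 0.07, while Ppargc1a was lower by −2.66 ± 0.20. Scaling by library totals moved all genes, with 8123 of 13154 called higher and 911 lower in isthmus cells. The median was then 0.54 for all genes and 0.57 for nuclear members. With library totals the isthmus counts turned to 84 nuclear members higher and 2 lower and 9 mt- genes higher, and without Epcam+ 1 or Epcam+ 2 the nuclear count called was 35 and 32 instead of 54. Without Epcam+ 2 the count of mt- genes called was 6.

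The sort was then compared within each of the 5 clusters that held at least 20 cells in all 4 libraries, which asks whether label-retaining cells differ in OXPHOS transcripts. For nuclear members there were 0 calls in all 5 clusters (edgeR's quasi-likelihood test with no block for the replicate number). Of all genes tested, 0.0394% were called higher and 0.0493% lower in cluster 1, 0.0886% and 0.0709% in cluster 0, 0.209% and 0.155% in cluster 2, 0.0441% and 0.264% in cluster 5, and 0.0602% and 0.161% in cluster 6. At an unadjusted p below 0.05 there were 29 of 92 nuclear members in cluster 1 (31.5%, against 7.97% of all genes tested), 28 of 94 in cluster 0 (29.8%, against 11.4%) and 30 of 94 in cluster 2 (31.9%, against 16% of all genes). In cluster 5 there were 8 of 92 (8.70%, against 8.43%), a share near that of all genes, and in cluster 6 there were 15 of 92 (16.3%, against 7.01%). With the DESeq2 test, 12 nuclear members were called higher in cluster 2 and 0 in the other 4 clusters, and 2 mt- members in cluster 2 and 1 in cluster 1. Leaving out GFP+ 1 gave 4 nuclear and 4 mt- calls in cluster 0, and leaving out GFP+ 2 gave 5 nuclear calls in cluster 2, where leaving out GFP+ 1 gave 3 and Epcam+ 1 gave 2.

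The medians of the nuclear members were near 0, at −0.04, 0.00, 0.12, −0.06 and 0.03 on the log2 scale in clusters 0, 1, 2, 5 and 6. These comparisons use cells of the same libraries and are set side by side only. Ndufa4, a subunit of complex IV, was lower in both GFP+ libraries than in both Epcam+ libraries of each cluster, with differences of −0.49 ± 0.09, −0.33 ± 0.08, −0.26 ± 0.08, −0.41 ± 0.17 and −0.27 ± 0.11 in the same order of clusters. Ndufb1-ps, a complex I gene by its symbol whose exons share 147 bases with Cpsf2 on the other strand, had 0.49 ± 0.12, 0.59 ± 0.10, 0.61 ± 0.11, 0.48 ± 0.17 and 0.44 ± 0.13. Neither passed after adjustment in these fits, but Ndufb1-ps passed in cluster 1 without Epcam+ 1 (0.70) or GFP+ 2 (0.63) and in cluster 2 without GFP+ 2 (0.65) or with DESeq2 (0.62), and Ndufa4 passed in cluster 0 without GFP+ 1 (−0.51) or GFP+ 2 (−0.48). For Cycs in pit cells the GFP+ libraries had 299 and 309 TMM CPM and the Epcam+ libraries 206 and 201, scaled within the cluster, a difference of 0.58 ± 0.09 with an adjusted p of 0.0666 (edgeR).

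Whether the sort acted differently among the clusters was tested directly. Of 12620 genes, 105 (0.832%) passed the joint test of cluster-by-sort terms, and 0 nuclear and 0 mt- members did (edgeR). At an unadjusted p below 0.05 there were 6 nuclear members (6.38%) and 0 mt- members, against 8.80% of all genes tested, and the smallest adjusted p was that of Cycs, at 0.157.

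In the same edgeR fits 1 OXPHOS gene was called between the sorts, mt-Atp8, a membrane subunit of ATP synthase, in cluster 1. There it stood at 39.1 and 42.1 TMM CPM in GFP+ 1 and GFP+ 2 and at 25.7 and 23.1 in Epcam+ 1 and Epcam+ 2, scaled within the cluster. The GFP+ values lay above the Epcam+ values with no overlap, and the log2 difference was 0.74 ± 0.10 (SE, adjusted p = 0.0388, edgeR). Without Epcam+ 2 it was 0.66 and did not pass. In clusters 0, 2, 5 and 6 the difference was 0.64, 0.67, 0.34 and 0.34, and none of these passed in the same fits. It passed in cluster 0 without GFP+ 1 (0.75) and in cluster 2 without Epcam+ 1 (0.78) or with DESeq2 (0.68). The cluster 5 value was 0.22 without Epcam+ 1 and 0.08 when cells over 10% mt- UMIs were left out, and the cluster 6 value was 0.53 without Epcam+ 1 and 0.16 without Epcam+ 2. The unadjusted p was below 0.05 for 6 of 13 mt- genes in cluster 1, for 5 each in clusters 0 and 2, and for 3 each in clusters 5 and 6, which is 46.2%, 38.5%, 38.5%, 23.1% and 23.1% against the shares of all genes given for these clusters.

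mt-Atp8 is read from the same RNA as mt-Atp6, since their frames overlap. On GRCm38 (GENCODE vM21) mt-Atp8 lies at chrM:7766-7969 on the plus strand and mt-Atp6 at chrM:7927-8607, so that 43 bases are shared. The mt-Atp8 frame is shown with those 43 bases in capitals, because the lower-case bases belong to mt-Atp8 alone.
mt-Atp8: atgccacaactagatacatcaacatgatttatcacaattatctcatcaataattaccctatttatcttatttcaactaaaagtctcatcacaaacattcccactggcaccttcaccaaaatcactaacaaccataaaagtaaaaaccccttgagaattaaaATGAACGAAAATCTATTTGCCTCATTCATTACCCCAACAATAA
Over all cells mt-Atp8 had 18361 UMIs and mt-Atp6 had 2246011. The ratio within this pair does not depend on library scaling. For every 1000 mt-Atp6 UMIs in cluster 1 there were 14.4 and 13.8 mt-Atp8 UMIs in GFP+ 1 and GFP+ 2, against 9.04 and 7.10 in Epcam+ 1 and Epcam+ 2.

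Both GFP+ libraries exceeded both Epcam+ libraries in this ratio in each of the 5 clusters. In neck cells the ratio was 12.4 and 13.1 in the GFP+ and 8.22 and 6.54 in the Epcam+ libraries, in pit cells 11.6 and 12.2 against 7.61 and 5.69, and in cluster 5 12.9 and 13.3 against 9.0 and 9.38. In endocrine cluster 6 it was 8.93 and 8.63 against 7.81 and 5.54. An exact permutation test of 2 libraries against 2 could not fall below 0.333, so no p is given, and the 5 clusters come from the same 4 libraries. The parallel pair mt-Nd4l and mt-Nd4, which share 7 bases, gave 128 and 121 mt-Nd4l UMIs per 1000 of mt-Nd4 in the GFP+ and 107 and 85.6 in the Epcam+ libraries of cluster 1. For that pair the sorts were separate in clusters 0, 1, 2 and 5 and overlapped in cluster 6, at 64.9 and 59.6 in the GFP+ and 61.5 and 47.8 in the Epcam+ libraries. Pairs of mt- genes that share no bases shifted as well. mt-Nd2 per 1000 of mt-Nd1 was 1008.5 and 1020.5 in the GFP+ and 911 and 801 in the Epcam+ libraries of cluster 1, and mt-Nd3 per 1000 of mt-Nd4 was 401 and 470 in the GFP+ and 345 and 326 in the Epcam+ libraries. Both of these pairs were separate in all 5 clusters, and mt-Co1 per 1000 of mt-Co3 in clusters 1, 2, 5 and 6. Separation was thus also seen in pairs without overlapping frames. Its direction, with the GFP+ libraries above, depends on which gene is set over which and is no separate support. In each of these pairs the upper gene had the larger mean sort difference over the 5 clusters. These were 0.40 for mt-Nd2 and 0.13 for mt-Nd1, 0.42 for mt-Nd3 and 0.03 for mt-Nd4, and 0.08 for mt-Co1 and −0.15 for mt-Co3. Sequencing depth and median UMIs per cell also differed between the sorts, and their part in these ratios was not tested.

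**Figure D5:**
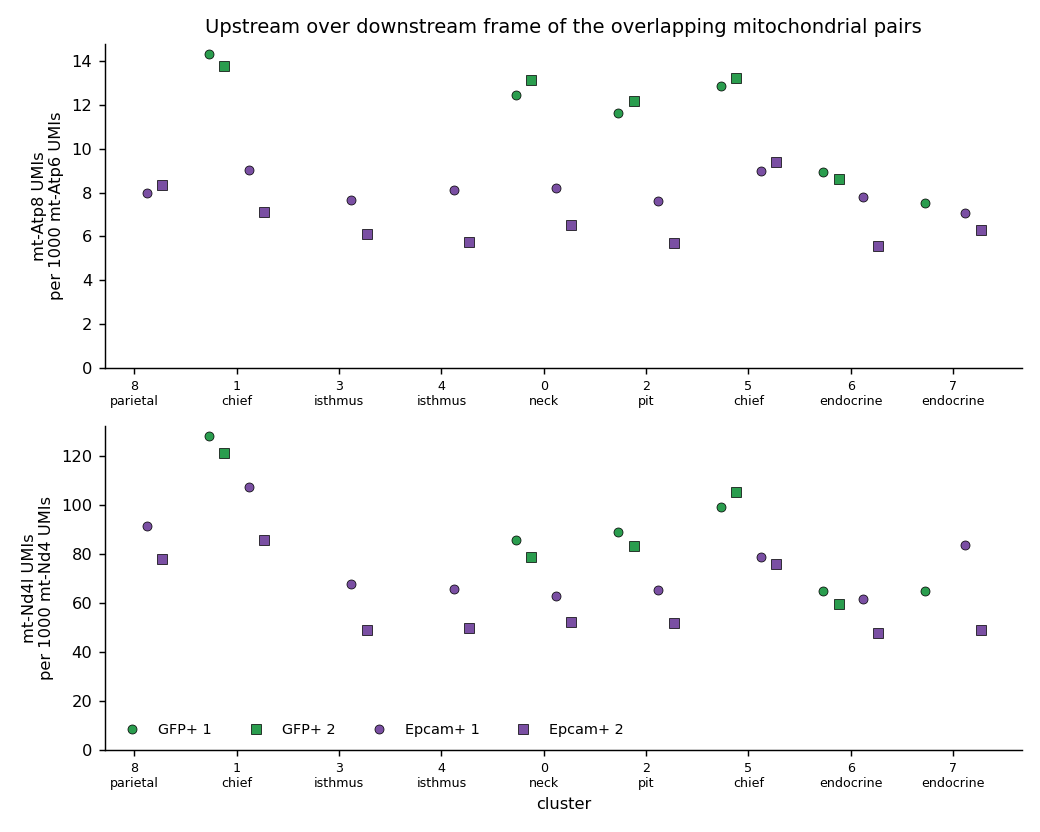
UMIs of mt-Atp8 per 1000 UMIs of mt-Atp6 (upper panel) and of mt-Nd4l per 1000 of mt-Nd4 (lower panel), by cluster, with 1 point per library holding at least 20 cells of the cluster. In clusters 0, 1, 2, 5 and 6 both GFP+ libraries lie above both Epcam+ libraries for mt-Atp8, for example 14.4 and 13.8 against 9.04 and 7.10 in cluster 1.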

How the data were processed

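The deposited table holds raw UMI counts per gene and cell, made by the authors from 10x 3′ libraries with Cell Ranger 3.0.2 on mm10. The authors dropped cells above 15% mitochondrial counts, above 8000 or below 1500 detected genes, or holding a Ptprc or Pecam1 count, and deposited the cluster and library of each remaining cell. No column of per-sample values was left unused. Doublets were not called again.

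UMIs were summed per library and cluster (at least 20 cells) and tested with edgeR 4.0.16 in R 4.3.3: TMM factors, filterByExpr, glmQLFit and glmQLFTest, two-sided, Benjamini-Hochberg over all genes at 0.05, with no block between sorts and the library as a block between clusters, each other cluster weighted equally. DESeq2 1.42.0 was an alternative. Fits were tested on simulated data. The SE of a log2 difference was its size divided by the square root of F. Positions and transcript lengths came from GENCODE vM21, whereas the authors used another release of that build. Promoters came from RefSeq.

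The members, lists and alternatives were chosen with earlier results of these data known. Named are the mt- genes, the 3 most abundant subunits of each complex, tissue isoforms, up to 5 called rises and 5 called falls per comparison, ranked by size among members averaging 50 CPM or more, and the 2 most abundant or called genes of each list. Genes named beyond this were chosen after their values were seen. Exons of 5 nuclear members share bases with another gene on their strand and those of 31 with one on the other strand.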

Additional observations from a re-analysis of the deposited data

Results flagged for a closer look

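The share of nuclear members outside Clps, Pla2g1b and Pgc differed between the sorts in opposite directions in 2 clusters. In cluster 1 chief cells it was 3.14% and 3.15% in GFP+ 1 and GFP+ 2 and 3.05% and 3.02% in Epcam+ 1 and Epcam+ 2, and the GFP+ mean minus the Epcam+ mean was 0.111 percentage points. In neck cells (cluster 0) it was 2.69% and 2.69% in the GFP+ and 2.76% and 2.80% in the Epcam+ libraries, and the same difference was −0.0951 percentage points. Both GFP+ libraries lay above both Epcam+ libraries in cluster 1 and below them in cluster 0. In clusters 2, 5 and 6 the sorts overlapped, for example in pit cells with 3.11% and 2.89% in the GFP+ and 3.02% and 2.86% in the Epcam+ libraries. With so few libraries per sort, separation in 2 clusters is weak evidence. On the TMM scale the median log2 difference of the nuclear members was −0.0008 in cluster 1 and −0.04 in cluster 0. The difference between these clusters was not tested.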

How the results depend on the processing

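Parietal counts for nuclear members held under every alternative run, between 88 and 93 called. Between sorts, with no filter on low counts, cluster 1 gave 10 nuclear and 4 mt- calls, cluster 2 gave 15 and 4, and cluster 6 gave 2 mt- calls. Over all genes this setting called 236 of 15390 in cluster 1, against 9 of 10146 with the filter. The DESeq2 test gave 12 nuclear and 2 mt- calls in cluster 2. Leaving out 1 library gave 0 to 1 nuclear and 0 to 2 mt- calls in cluster 1, 0 to 4 and 0 to 4 in cluster 0, 0 to 5 and 0 to 1 in cluster 2, and 0 to 1 nuclear calls in cluster 6. For parietal cells it gave 7 to 11 mt- calls and for isthmus cells 32 to 55 nuclear and 6 to 11 mt- calls.

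The replicate numbers are shared between the sorts in the labels, which do not say what a number marks. Libraries of the same number deviated together weakly (correlations of 0.22, 0.25, 0.20, −0.036 and 0.15 in clusters 1, 0, 2, 5 and 6). With the replicate block, cluster 1 had 16 nuclear and 6 mt- calls, cluster 0 had 21 and 7, and cluster 2 had 12 and 2, against 0 nuclear calls in each and 1, 0 and 0 mt- calls without it. Calls rose over all genes as well, to 412 of 10146 in cluster 1 and 665 of 11287 in cluster 0, against 9 and 18 without the block. Calls gained with it include Ndufa4 (−0.33 in cluster 1, −0.49 in cluster 0) and Ndufb1-ps (0.60, 0.49 and 0.61 in clusters 1, 0 and 2).

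Library totals reversed the balance in chief cells, with 94 nuclear and 13 mt- members called, all lower (Ndufa1 −0.34, Uqcrq −0.85, mt-Nd4l −1.41, mt-Nd3 −1.58), and in isthmus cells, with 86 and 9 called, nearly all higher. The median of all genes moved in the same directions, to −2.59 in chief cells and 0.54 in isthmus cells. Library totals gave Ndufa1 0.29 in parietal cells. Totals without Clps, Pla2g1b and Pgc gave 68 nuclear calls in chief cells, 46 of them lower. In isthmus cells, Epcam+ libraries alone gave 61 nuclear calls and sums of at least 10 cells gave 59, with more higher than lower in both.

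Setting the 3 secretory genes aside moved the mean nuclear share to 2.73%, 3.09%, 3.00%, 3.12%, 2.76% and 2.03% in clusters 0, 1, 3, 4, 5 and 7, and the mt- share to 8.22%, 7.52%, 6.50% and 6.35% in clusters 0, 1, 5 and 7. The median over cells gave 1.26% for nuclear members in cluster 5. Setting genes aside lowers the total that a share is taken of, whereas the median over cells uses all UMIs. The cause of the shift in that median was not tested. Depth left Cox4i2 (25 UMIs) and Cox8c (3 UMIs) untested.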

Other observations

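Over the nuclear members of at least 50 CPM, Spearman's rho between the length of the longest annotated transcript and the GFP+ minus Epcam+ log2 difference was −0.44 in cluster 0 (79 genes), −0.40 in cluster 1 (41 genes), −0.29 in cluster 2 (80 genes), −0.35 in cluster 5 (75 genes) and −0.33 in cluster 6 (84 genes). Over all genes of at least 50 CPM it was 0.11, −0.06, 0.05, 0.19 and 0.15 in the same order. Among all genes of at least 50 CPM, the share with a difference above 0 among transcripts of up to 750 bases, against those of 750 to 1500 bases, was 55.2% against 35.9% in cluster 0, 70.5% against 55.2% in cluster 1, 64.5% against 48.6% in cluster 2, 52.5% against 36.7% in cluster 5 and 58.6% against 37.0% in cluster 6. For transcripts over 6000 bases this share was 58% in cluster 0, 61.5% in cluster 1 (13 genes), 61.0% in cluster 2, 74.7% in cluster 5 and 59.3% in cluster 6. It therefore did not fall steadily with length. Nuclear members were 12 of the 44 genes in the shortest class in cluster 1 and 17 of 105 in cluster 0. These are correlations and shares across genes of the same 4 libraries, and genes are not independent replicates.

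The nuclear members at both ends of the sort difference, ranked by their mean over the 5 clusters, did not divide by length alone. The highest were Ndufb1-ps (0.53, longest transcript 861 bases), Atp5md (0.48, no length matched) and Ndufa3 (0.46, 782 bases). The lowest were Ndufaf6 (−0.40, 1082 bases), Ndufa4 (−0.35, 1232 bases) and Ndufa8 (−0.29, 861 bases). Cells with under 1% of their UMIs from mt- genes numbered 142 in cluster 1, 24 in cluster 5 and 12 in cluster 0.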
